A study of Mus musculus with 9 samples.

Results

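Broad H3K4me3 regions are the stretches of at least 1500 bp (end minus start plus 1, as the table writes them) in the H3K4me3 region list of mouse lung endothelial cells, on chromosomes 1 to 19 and X. Of the 54496 H3K4me3 regions on these chromosomes, 1189 were broad, which is 2.18% of the regions and 10.2% of the bases they cover. The 8 lists of the table hold 1283153 regions there in all. Lung endothelial cells isolated from wild-type mice were profiled by ACT-seq, in which an antibody bound to its histone mark in permeabilised nuclei carries a Protein A/G-Tn5 transposase that cuts and tags the DNA nearby. The 9 targets were H3K4me3, H3K9ac, H3K14ac, H3K18ac, H3K23ac, H3K27ac, H4K8ac, H2AK5ac and IgG, with 1 library each. Age, sex, the number of mice and the way the cells were purified are not given in the labels. Library totals ran from 365999 counts (IgG) to 10044130 (H3K14ac), and H3K4me3 had 1477463. With 1 library per target there is no replicate error and no p-value, and the 95% intervals below (Wilson) cover counting error over regions only. Width, read from the H3K4me3 list itself, chose the regions, so it is given as a description.

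H3K4me3 is laid down by SET1 and MLL (KMT2) methyltransferase complexes and marks the starts of genes that are active or ready to be transcribed. CXXC1 and KMT2B bring these complexes to unmethylated CpG islands, KDM5 enzymes remove the mark, and TFIID reads it through TAF3. In many cell types the widest H3K4me3 stretches lie at genes of cell identity and at tumour suppressor genes. Histone acetylation, placed by p300/CBP, GCN5/PCAF and MYST enzymes and removed by HDACs, accompanies H3K4me3 at active starts.

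The label of the cells was checked against H3K4me3 at gene starts. A region within 2 kb of the start was present at 29 of 32 endothelial surface and junction genes, against 61.5% of all protein-coding genes. Where the strand was not annotated, either gene end counted as a start. Among the 29 were Pecam1 (912 bp) and Cdh5 (828 bp), the platelet-endothelial adhesion molecule and VE-cadherin. The endothelial genes Cldn5, Vwf and Icam2 were listed at 0. A region was present at 6 of 21 leukocyte markers (widest 360 bp), 8 of 19 mesenchyme markers (widest 1047 bp, Fn1) and 8 of 19 lung epithelium markers. The widest of the epithelial ones were at Sftpc (1520 bp, in a broad region that also lies near Bmp1) and Abca3 (1256 bp), a lipid transporter gene of alveolar cells. Hopx followed (902 bp). Ptprc, the pan-leukocyte gene CD45, and Pdgfra, a fibroblast marker, were listed at 0, as were the epithelial genes Sftpb, Nkx2-1 and Scgb1a1. What part cells of other types have in the broad regions was not tested.

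The promoters of 4 genes show the range of sequence under broad H3K4me3 in these cells. Each line gives 300 bases (250 before and 50 after the annotated start, in the direction of the gene) from RefSeq on GRCm38.p6, with every CpG in capitals. Foxo1 (chr3:52268087-52268386, plus strand), a forkhead factor that restrains endothelial growth, and Efnb2 (chr8:8661193-8661492, minus strand), the arterial ligand ephrin-B2, are dense in CpG. Eng (chr2:32646345-32646644, plus strand), the BMP9 co-receptor endoglin, and Robo4 (chr9:37401722-37402021, plus strand), a receptor of vessel stability, hold few.
Foxo1: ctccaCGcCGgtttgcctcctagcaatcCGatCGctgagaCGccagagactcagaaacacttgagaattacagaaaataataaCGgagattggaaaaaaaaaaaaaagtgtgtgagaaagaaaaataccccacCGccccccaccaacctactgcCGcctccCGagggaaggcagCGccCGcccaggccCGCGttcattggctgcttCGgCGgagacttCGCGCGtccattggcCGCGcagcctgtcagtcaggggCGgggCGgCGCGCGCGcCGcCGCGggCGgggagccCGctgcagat
Efnb2: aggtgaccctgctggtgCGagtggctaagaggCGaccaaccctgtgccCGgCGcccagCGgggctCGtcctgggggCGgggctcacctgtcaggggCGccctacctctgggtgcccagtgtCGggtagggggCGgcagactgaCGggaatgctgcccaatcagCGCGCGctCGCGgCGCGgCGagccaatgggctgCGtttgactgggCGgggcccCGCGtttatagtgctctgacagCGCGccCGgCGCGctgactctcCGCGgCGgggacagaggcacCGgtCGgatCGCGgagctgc
Eng: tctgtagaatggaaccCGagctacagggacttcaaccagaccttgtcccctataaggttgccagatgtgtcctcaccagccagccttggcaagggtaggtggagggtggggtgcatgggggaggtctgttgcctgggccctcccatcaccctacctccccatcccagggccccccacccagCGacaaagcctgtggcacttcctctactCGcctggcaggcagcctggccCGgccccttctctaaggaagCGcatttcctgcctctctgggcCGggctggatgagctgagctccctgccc
Robo4: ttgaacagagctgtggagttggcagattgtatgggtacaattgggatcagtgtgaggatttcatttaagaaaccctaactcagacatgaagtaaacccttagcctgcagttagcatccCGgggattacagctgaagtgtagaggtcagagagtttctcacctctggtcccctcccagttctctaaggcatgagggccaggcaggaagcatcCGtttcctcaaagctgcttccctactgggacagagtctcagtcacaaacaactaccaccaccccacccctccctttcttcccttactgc

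The Foxo1 window holds 31 CpGs, an observed over expected ratio (CpG count times length, over the product of C and G counts) of 1.1, and lies in a region of 3027 bp. Efnb2 holds 35 CpGs with a ratio of 0.9 in a region of 2179 bp. Eng holds 6 with a ratio of 0.2 in a region of 1951 bp. Robo4 holds 2 with a ratio of 0.11 in a region of 1702 bp. Regions of this width were therefore present over CpG-dense and over CpG-poor starts.

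The broad regions had a median width of 1689 bp (quartiles 1584 and 1867), against 157 bp for all H3K4me3 regions, where 157 bp is also the minimum. The widest had 3099 bp, 162 had 2000 bp or more, 16 had 2500 bp or more, and 4 had 3000 bp or more. Most members therefore lay close to the threshold. Starts in the table count from 0, so a region of 1499 bases passes, and 5 members had that width. Just inside were the regions at Ripor1 and Msantd2 (1499 bp), and just outside those at Luzp1 and Pparg, the adipogenic nuclear receptor (1498 bp). The widest lay in Pdgfb (chr15:80011678-80014776), which encodes the ligand that draws pericytes to endothelium. Next came Foxo1 (chr3:52267694-52270720, 3027 bp), the zinc-finger gene Zfp703 (3026 bp), Tsc22d2 (3025 bp) and Cpeb2, an mRNA-binding regulator of translation (2872 bp). The 15 widest also held Cux1, a homeobox factor (2837 bp), the kinase gene Prkce (2827 bp), Cdk6, the G1 cyclin-dependent kinase (2633 bp), the RNA helicase gene Ddx6 (2556 bp) and Bcl2l11, the pro-apoptotic BIM (2538 bp). Schip1, Setd5, B3gnt2, Nav2 and Mex3c completed them, between 2585 and 2801 bp.

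Broad regions lay at gene starts and reached mostly into the gene. Within 2 kb of a protein-coding start lay 1114 of 1189 (93.7%, 95% interval 92.2 to 94.9), against 31.6% of all H3K4me3 regions. Of the regions of 1000 to 1499 bp, 92.1% did, and of those of 157 bp, 9.89%. A start lay inside 1042 of the regions. Among the 729 that held the starts of 1 gene of known strand, the region extended a median of 442 bp upstream (quartiles 268 and 682) and 1255 bp downstream (quartiles 1021 and 1466). It reached farther downstream than upstream in 635 of these (87.1%, interval 84.5 to 89.3), close to the 88.8% of the regions of 1000 to 1499 bp and the 85.2% of those of 500 to 999 bp. The added width of broad regions lay on both sides of the start, since the class of 1000 to 1499 bp had medians of 314 bp upstream and 859 bp downstream.

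At the start base the acetylation lists other than H3K14ac and H2AK5ac lay close together, and within the gene H3K9ac and H3K23ac lay above the others. At the start base itself, H3K9ac covered 85.2% of the 729 starts, H3K23ac 84.9%, H3K27ac 86.3%, H3K18ac 88.9%, H4K8ac 83.3%, H3K14ac 70.6% and H2AK5ac 18.5%. At 1000 bp into the gene, where 79.0% of the starts still had H3K4me3, H3K9ac covered 44.0% and H3K23ac 44.6%. At that base H3K27ac covered 25%, H3K18ac 22.8%, H4K8ac 21.9%, H3K14ac 25.9% and H2AK5ac 3.84%. H3K9ac and H3K23ac thus accompanied H3K4me3 along the gene body side more often than the other acetylations did, while all 7 lists were near their highest share close to the start. At 1000 bp upstream all 8 lists lay between 2.33% (H2AK5ac) and 9.88% (H4K8ac). The H3K9ac and H3K23ac lists also have the longest minimum widths of the 8 (204 and 206 bp, against 102 to 157 bp for the others), and the part of this in their coverage was not tested.

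**Figure D1:**
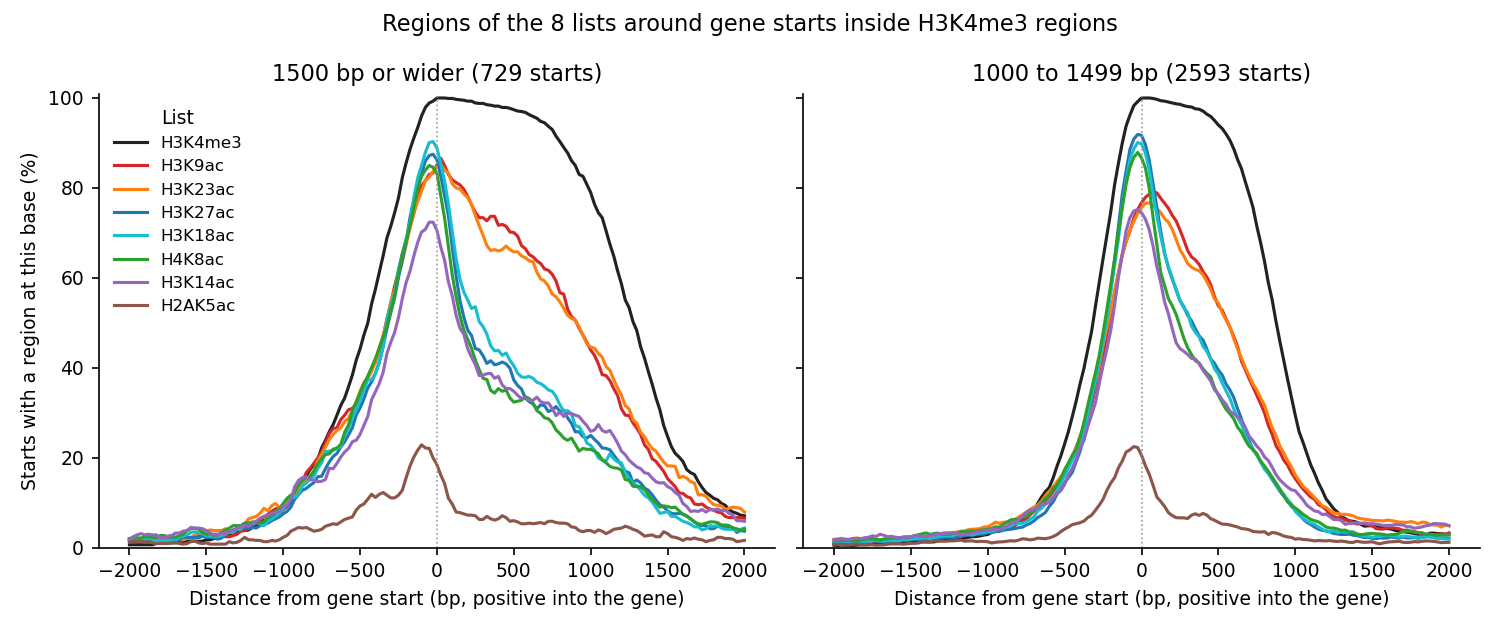
Share of gene starts (vertical axis, %) at which a base lies in a region of each list, by distance from the start in bp (positive into the gene), for 729 starts inside broad H3K4me3 regions (left) and 2593 inside regions of 1000 to 1499 bp (right). On the left H3K9ac and H3K23ac stand at 44.0% and 44.6% at 1000 bp into the gene, above the other acetylations (3.84 to 25.9%).

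The regions at 6 genes show how the lists were laid out at single starts. At Foxo1, H3K4me3 ran without a break from 643 bp before to 2384 bp after the start. One H3K9ac peak there ran from 198 bp before to 1862 bp after the start, whereas H3K27ac lay in 4 separate peaks of 133 to 386 bp. At Efnb2, H3K4me3 ran from 440 bp before to 1739 bp after the start, and H3K27ac was 1 peak of 1019 bp that ended 628 bp after it. At Eng, H3K9ac had peaks of 1323 and 375 bp, and H3K14ac lay in scattered peaks that were nearly all of the minimum 138 bp. At Robo4, the H3K27ac, H3K18ac and H4K8ac peaks at the start had 217 to 229 bp each, and all 3 marks had further peaks upstream, outside the H3K4me3 region. At Jun, the AP-1 subunit, the H3K27ac, H3K18ac and H4K8ac peaks over the start had 746 to 755 bp and ended within 132 bp after it. At Nrp1, the VEGF and semaphorin co-receptor neuropilin-1, the start base lay in H3K4me3 (1968 bp) and in no acetylation peak. Nrp1 thus differed from the layout of most starts.

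**Figure D2:**
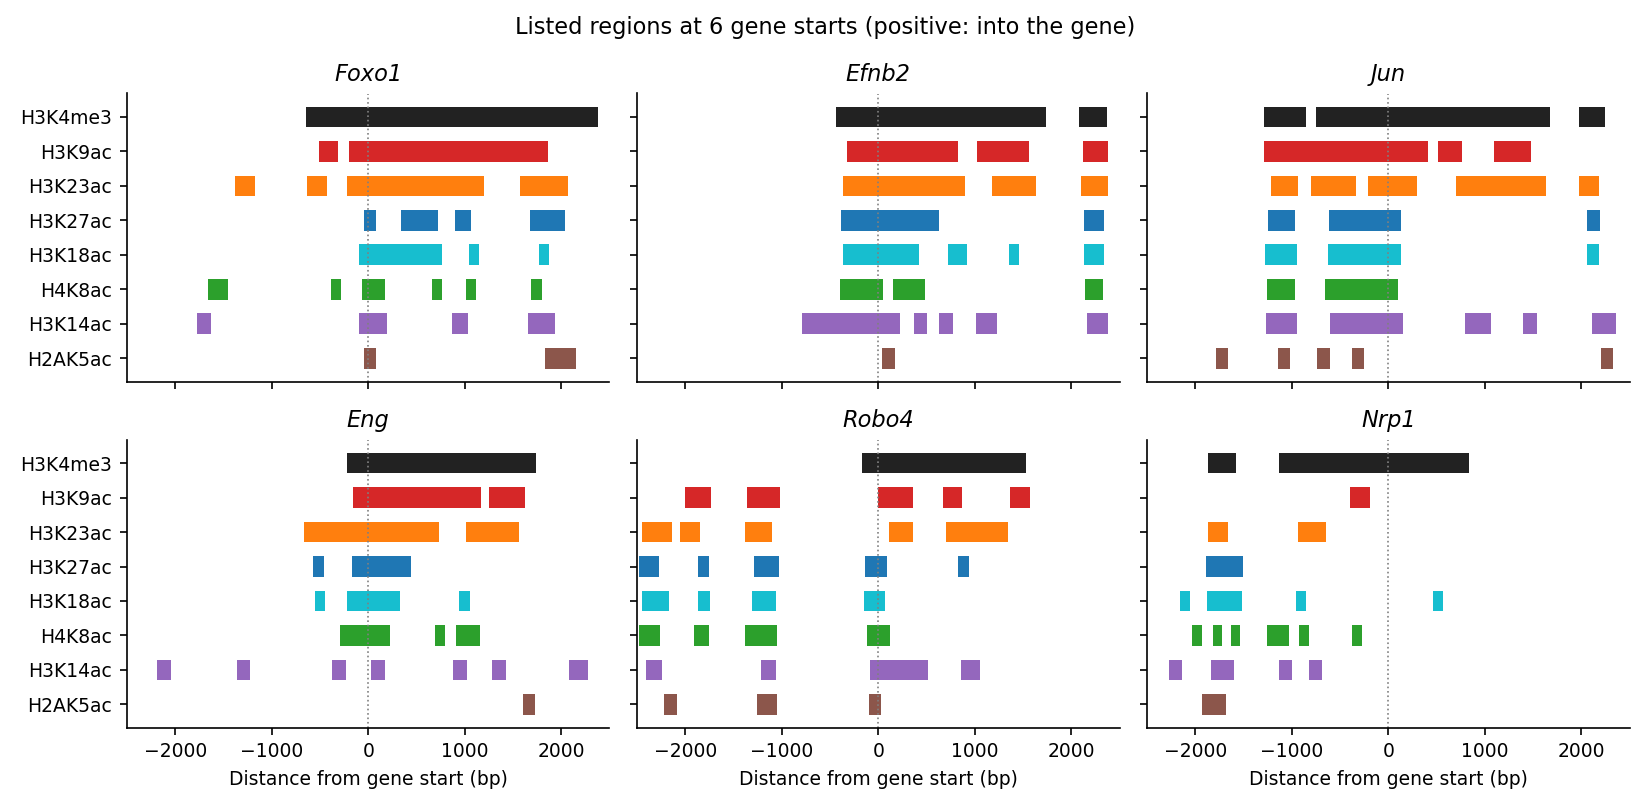
Regions of the 8 lists (bars, 1 row per list) within 2500 bp of the starts of Foxo1, Efnb2, Jun, Eng, Robo4 and Nrp1, by distance from the start in bp (positive into the gene). The H3K4me3 bar of Foxo1 spans 3027 bp, and the Nrp1 start lies in H3K4me3 alone.

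Nearly every broad region met 6 of the acetylation lists. At least 1 base was shared with the H3K18ac list by 1187 regions (99.8%, against 54.4% of all H3K4me3 regions), with the H3K27ac list by 1184 (99.6%, against 53.6%) and with the H3K23ac list by 1184 (99.6%, against 38.6%). The count was 1182 for H4K8ac (99.4%, against 54.4%), 1179 for H3K14ac (99.2%, against 53.4%) and 1178 for H3K9ac (99.1%, against 36.4%). H2AK5ac was the exception, with 839 regions (70.6%, interval 67.9 to 73.1, against 29.1%). All 7 lists were met by 831 regions (69.9%, interval 67.2 to 72.4, against 18.2% of all H3K4me3 regions), and 331 met 6. Of these 331, 325 lacked H2AK5ac. A wide region has more bases in which to meet a peak, so these shares grow with width by construction.

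The centre base removes that advantage. It lay in an H3K9ac peak in 77.7% of broad regions (interval 75.3 to 80.0), 72.2% of those of 1000 to 1499 bp and 58.6% of those of 500 to 999 bp. H3K23ac covered 71.5%, 70.1% and 58.0% of the centres in the same order. H3K27ac ran the other way, with 48.4% (45.6 to 51.3), 63.2% and 69.1%. H3K18ac (54.3%, 63.5% and 64.6%), H4K8ac (46.7%, 57.3% and 64.9%), H3K14ac (43.2%, 52.6% and 56.9%) and H2AK5ac (7.91%, 10.8% and 14.3%) were likewise lower in the broad class. The intervals of the broad class and of the class of 500 to 999 bp do not overlap for any of the 7 lists. The centre of a broad region lies downstream of the start in most cases, as the reach around the starts shows, so the centre is not the same place in each class.

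**Figure D3:**
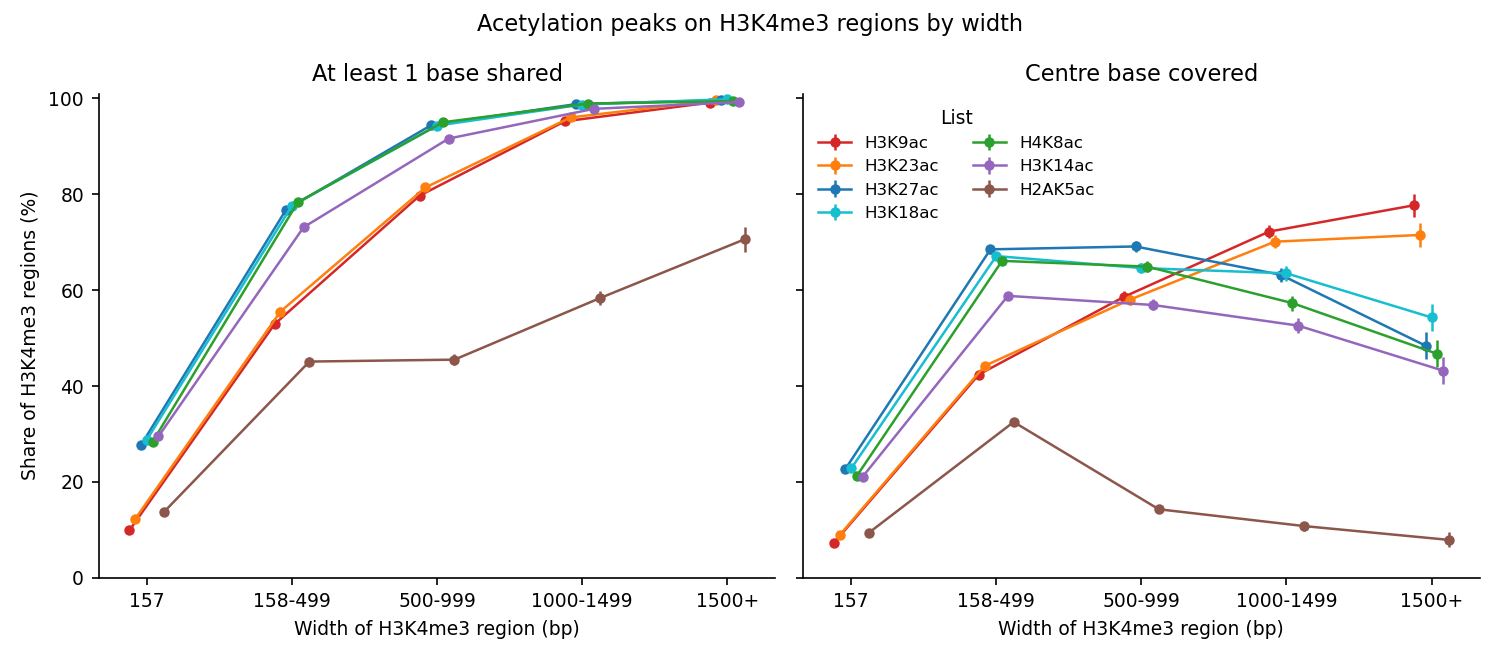
Share of H3K4me3 regions (vertical axis, %, with 95% Wilson intervals) that share at least 1 base with each acetylation list (left) or have their centre base in it (right), by width of the H3K4me3 region in bp. The shares on the left rise with width to 99.1 to 99.8% for 6 lists and 70.6% for H2AK5ac, and on the right H3K9ac reaches 77.7% while H3K27ac stands at 48.4% in the broad class.

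Inside the broad regions, acetylation peaks covered part of the bases. H3K9ac peaks covered 67.4% of all bases of the broad regions (median 1220 bp a region, quartiles 947 and 1444) and H3K23ac 65.3% (median 1168 bp). H3K18ac covered 51.1%, H3K27ac 49.2%, H4K8ac 46.7%, H3K14ac 44.0% and H2AK5ac 9.86%. In 61.0% of the regions H3K9ac lay in at least 2 separate peaks, and the share was 71.4% for H3K23ac, 78.0% for H3K27ac, 80.7% for H3K18ac, 83.0% for H4K8ac, 84.9% for H3K14ac and 31% for H2AK5ac. The median was 2 peaks where any lay, and 1 for H2AK5ac. At least 2 separate peaks in a broad region were thus the more common layout for every list but H2AK5ac. Among these lists the share was lowest for H3K9ac. In regions of 1000 to 1499 bp it ran from 36.1% (H3K9ac) to 62.8% (H4K8ac), with 16.9% for H2AK5ac. A wide region has more bases in which to meet separate peaks, so these shares grow with width by construction. H3K9ac had 246 regions of 1500 bp or more on these chromosomes and H3K23ac had 173, while H3K27ac had 11, H3K18ac 10, H4K8ac 10, H3K14ac 5 and H2AK5ac none. Of the 246 wide H3K9ac regions, 177 (72.0%) met a broad H3K4me3 region, and these lay on 14.9% of the broad regions. Of the 173 wide H3K23ac regions 127 (73.4%) did, on 10.7% of the broad regions. None of the 5 wide H3K14ac regions met one. All 246 wide H3K9ac and all 173 wide H3K23ac regions met an H3K4me3 region of some width, as did 2 of the 5 of H3K14ac. Wide regions have more bases in which to meet each other.

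A few broad regions carried little acetylation. The region at Bcar1, which encodes the adhesion scaffold p130Cas, had 1824 bp and met 3 other lists, with 718 bp of H3K9ac, 526 bp of H3K23ac and 129 bp of H2AK5ac. The region at Vasp, an actin regulator at cell junctions, had 1509 bp and met H3K9ac (159 bp), H3K23ac (428 bp) and H3K27ac (164 bp). Slit2, a guidance ligand of Robo receptors, had 1680 bp with no H3K9ac or H3K23ac, and 661 bp of H3K14ac, 352 bp of H4K8ac, 330 bp of H3K18ac and 109 bp of H3K27ac. These 3 were the regions with fewer than 5 other lists. Among the 24 regions with 5, Nrp1 (1968 bp) had no H3K27ac or H2AK5ac and 204 to 306 bp of each of the other 5. Dnmt3a, a de novo DNA methyltransferase gene (1932 bp), had no H3K9ac or H2AK5ac and 258 to 510 bp of the others.

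Broad regions lay within 2 kb of the starts of 1287 of 21631 protein-coding genes (5.95%). Since 13304 genes (61.5%) had any H3K4me3 region there, 9.67% of the genes with the mark had a broad one. Starts of 2 or more genes lay inside 154 regions, and 108 of these held diverging starts. For a gene without an annotated strand, both ends of its span were taken as possible starts. The gene lists below were drawn up with earlier results of these data known, so their counts are descriptions to be read against the 5.95% of all protein-coding genes.

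Of 32 endothelial surface and junction genes, 6 had a broad region (18.8%). The widest was at Thbd, the anticoagulant receptor thrombomodulin, with 2403 bp, of which H3K9ac covered 1499 bp, H3K14ac 1427 bp, H3K23ac 1314 bp, H4K8ac 1139 bp, H3K18ac 1046 bp, H3K27ac 923 bp and H2AK5ac 0 bp. Nrp1 (1968 bp), Eng (1951 bp), Robo4 (1702 bp), Ecscr, an endothelial chemotaxis regulator (1603 bp), and Flt4, the VEGF-C receptor (1500 bp), were the others. At Eng, H3K9ac covered 1698 bp and H3K23ac 1499 bp, against 787 bp for H4K8ac, 647 bp for H3K18ac, 614 bp for H3K27ac, 414 bp for H3K14ac and 129 bp for H2AK5ac. At Robo4, H3K23ac covered 897 bp, H3K14ac 816 bp and H3K9ac 739 bp, against 342 bp for H3K27ac, 229 bp for H4K8ac, 217 bp for H3K18ac and 129 bp for H2AK5ac. The widest of the narrower regions on this list lay at 4 genes. Kdr, the main VEGF receptor, had 1341 bp, Clec14a 1179 bp, the sialomucin gene Cd34 1111 bp, and S1pr1, the sphingosine 1-phosphate receptor, 1077 bp. Cldn5, Vwf and Icam2 had no H3K4me3 region at their starts.

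Of 32 endothelial transcription factor genes, 10 had a broad region (31.2%), and all 32 had some H3K4me3 within 2 kb of a possible start. At Lmo2 this was a region of the minimum 157 bp that lay outside the gene, 502 bp from an end of it. Foxo1 stood first with 3027 bp, of which H3K9ac covered 2264 bp, H3K23ac 2128 bp, H3K18ac 1070 bp, H3K27ac 1050 bp, H3K14ac 730 bp, H4K8ac 673 bp and H2AK5ac 457 bp. Epas1, the hypoxia factor HIF-2alpha, had 2262 bp with little of each acetylation: H3K14ac covered 709 bp, H3K27ac 656 bp, H3K9ac 501 bp, H3K18ac 432 bp, H3K23ac 412 bp, H4K8ac 255 bp and H2AK5ac 129 bp. Foxc2, a factor of lymphatic valves, had 2145 bp with 1725 bp of H3K9ac and 1640 bp of H3K23ac. Mef2a, a partner of class IIa deacetylases, had 1882 bp. Foxc1 (1866 bp), the ETS factor Fli1 (1843 bp), the shear-responsive Klf4 (1799 bp), Sox17 (1756 bp) and Sox18 (1573 bp) of the SoxF group, and Hhex (1687 bp) were the rest. The Sox17 region lay inside the gene, 1000 bp from the end with the lower coordinate. It is thus not shown to lie at the start of Sox17. Tal1 (1447 bp), Elf1 (1393 bp), Hey1 (1379 bp) and Etv6 (1371 bp) lay just under the threshold, while Erg, another endothelial ETS factor, had 317 bp. The endothelial factors therefore spread over the whole range of widths.

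Signalling genes were counted in 2 lists. Of 26 Notch, BMP and ERK feedback genes, 11 had a broad region (42.3%), and 25 had any H3K4me3. Efnb2 was the widest, with 1722 bp of H3K23ac, 1685 bp of H3K9ac, 1149 bp of H3K14ac, 1093 bp of H3K18ac, 1019 bp of H3K27ac, 768 bp of H4K8ac and 129 bp of H2AK5ac in its 2179 bp. Notch1, the receptor, had 1789 bp, and its ligand Dll4 had 1699 bp with 553 bp of H3K23ac as the most of any acetylation and no H4K8ac or H2AK5ac. Spred1 (1786 bp), Spry4 (1785 bp, shared with Arhgap26), Spry1 (1688 bp) and Spred2 (1601 bp), inhibitors of receptor tyrosine kinase signalling, were all broad. With Spred3 they made 5 of the 7 Sprouty and Spred genes, a family chosen after its values were seen. Smad1, the BMP effector (1760 bp), Id3, its target (1587 bp), the ERK phosphatase gene Dusp4 (1536 bp) and the type II receptor gene Bmpr2 (1509 bp) completed the list.

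Of 23 immediate-early genes, which respond to stimuli without new protein synthesis, 11 had a broad region (47.8%), and all 23 had some H3K4me3. Jun had 2418 bp, with 1850 bp of H3K23ac, 1786 bp of H3K9ac, 1184 bp of H3K14ac, 755 bp of H3K18ac, 748 bp of H4K8ac, 746 bp of H3K27ac and 258 bp of H2AK5ac. Dusp1, a phosphatase of p38 and JNK, had 2085 bp, Junb 1910 bp, Ier5 1868 bp and Egr1, a zinc-finger factor, 1864 bp. Jund (1734 bp), Ier2 (1721 bp), Fosl2 (1697 bp), Fosl1 (1577 bp), Ccn2 (1565 bp) and Btg2 (1553 bp) were the others. Jund shared its region with Iqcn, and Fosl1 with Ccdc85b. The Fosl1 region lay outside the gene, 186 bp from an end of it, and Ccdc85b was at least as near. Fosl1 was counted because both ends served as possible starts, so the region is not shown to lie at its start.

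The study's title names cystine uptake and breakdown. Of 30 cystine, cysteine and glutathione genes, 25 had H3K4me3 at the start and 0 had a broad region, a count that differs little from the 5.95% of all protein-coding genes in a list of this size. Their median width was 964 bp, against 925 bp for all genes with the mark. The widest were at Slc1a5, a neutral amino acid transporter (1464 bp), Txn1, thioredoxin (1431 bp), and Gpx4, the lipid peroxide reductase (1330 bp). Slc3a2, the heavy chain of the cystine transporter, had 1208 bp and Slc7a11, its light chain, 393 bp. Of 21 genes of amino acid and oxidative stress, 5 had a broad region (23.8%). They were Xbp1 (1713 bp), Ddit4 (1682 bp), Atf5 (1570 bp, shared with Nup62 and Il4i1b), Bach1 (1556 bp) and Nfe2l2 (1504 bp), which encodes NRF2.

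Chromatin enzymes and growth regulators were counted next. Of 22 acetyltransferase and deacetylase genes, 5 had a broad region (22.7%). They were Kat6b (2233 bp), Ep300, which encodes p300 (1816 bp), Hdac7 (1644 bp), Kat2b, which encodes PCAF (1639 bp), and Hdac4 (1528 bp). Of 19 genes of the H3K4 methylation machinery, 7 did (36.8%): the methyltransferase genes Kmt2b (1867 bp), Setd1a (1766 bp), Setd1b (1648 bp) and Kmt2d (1646 bp), the demethylase gene Kdm5b (1507 bp), and the SET1 complex subunits Wdr82 (1506 bp) and Cxxc1 (1501 bp). Of 32 tumour suppressor genes, 9 did (28.1%), led by Foxo3 (2150 bp), Dnmt3a (1932 bp), the H3K27 demethylase gene Kdm6a (1855 bp) and Asxl1 (1790 bp). Of 21 cell cycle genes, 4 did (19.0%): Cdk6 (2633 bp), E2f1 (1589 bp), Plk1 (1575 bp) and Mki67 (1507 bp). Of 22 housekeeping genes, 4 did (18.2%): Actb (1864 bp), Eef2 (1635 bp), Gapdh (1569 bp) and Hspa8 (1503 bp). The share of housekeeping genes was close to the 18.8% of endothelial surface and junction genes. Ywhaz was not counted, since its broad region (2139 bp) lay away from the starts used.

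No broad region lay at any of 21 leukocyte markers, 19 mesenchyme markers, 28 developmental factors of other lineages, 18 neuron genes or 19 liver, pancreas and muscle genes. In lists of these sizes, each of these counts taken alone differs little from the 5.95% of all protein-coding genes. Of 19 lung epithelium markers 1 had one, Sftpc, the surfactant protein C gene, with 1520 bp. The region ended 54 bp from the nearer end of Sftpc, whose strand was not annotated here. It is thus not shown to lie at the start of Sftpc. The start taken for Bmp1, a neighbouring protease gene, lay at the same or a shorter distance from the region. Most genes of these 6 lists had no H3K4me3 region at all: 15 of 21 leukocyte, 11 of 19 mesenchyme, 11 of 19 epithelium, 18 of 28 developmental, 12 of 18 neuron and 17 of 19 liver, pancreas and muscle genes. Over gene families picked by symbol after the values were seen, none of 1110 olfactory receptor genes, 17 of 364 solute carrier genes (4.67%), 19 of 394 Zfp genes (4.82%), 8 of 80 ribosomal protein genes, 8 of 44 Fox genes (18.2%), 4 of 19 Sox genes (21.1%) and 4 of 17 Klf genes (23.5%) had a broad region.

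**Figure D4:**
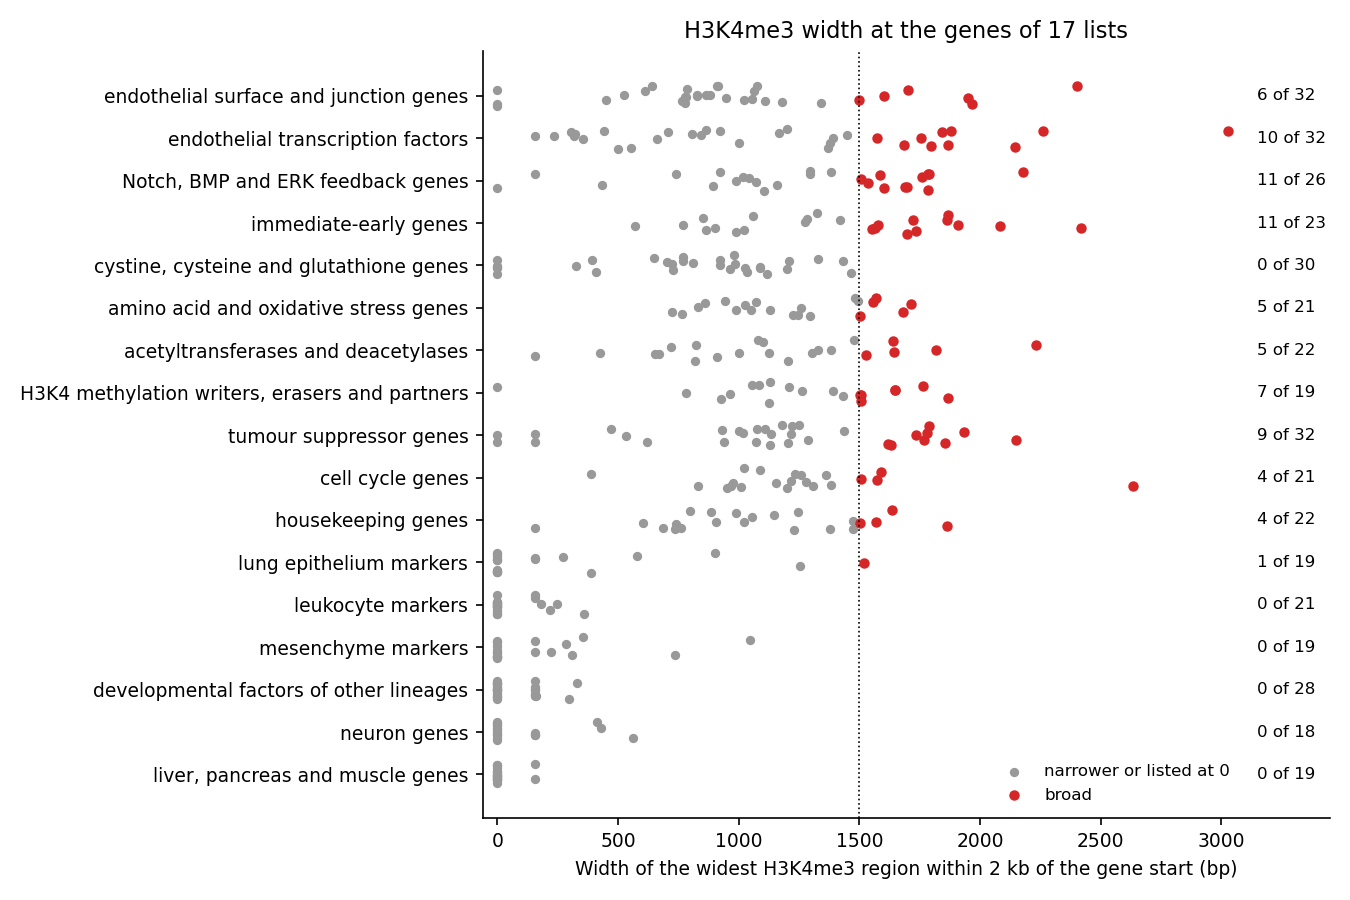
Width in bp of the widest H3K4me3 region within 2 kb of the start (horizontal axis) for each gene of 17 lists (rows, with points spread vertically for sight), with broad regions in red, genes without a region at 0 and the counts at the right. Immediate-early genes have 11 of 23 broad, the cystine, cysteine and glutathione genes 0 of 30, and the lists of other tissues lie mostly at 0. Where the strand was not annotated, either gene end counted as a start.

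Away from the starts used here lay 75 broad regions. Of these, 53 (4.46%) lay inside or within 2 kb of a protein-coding gene, at 14 of which the 5' end of the whole gene span was within 2 kb. The table of starts holds 1 or a few starts a gene, and further transcripts were not used here. The widest were Pdgfb, Cpeb2, Schip1 (2801 bp) and Setd5 (2769 bp, a SET-domain protein gene), followed by 2900026A02Rik (2481 bp), Unc45b (2259 bp), Runx2, a runt factor (2220 bp), and Ywhaz, a 14-3-3 protein gene (2139 bp). In Pdgfb, H3K9ac covered 2201 bp and H3K23ac 1631 bp, against 311 bp for H4K8ac and 159 bp for H2AK5ac. At Ywhaz, H3K23ac covered 1964 bp, H3K9ac 1762 bp and H3K18ac 1614 bp. Another 17 regions (1.43%) lay at RNA genes or other annotated genes only. Among them were Snhg15, a small nucleolar RNA host gene (2215 bp), Mir22hg, the host of miR-22 (2099 bp), Mir17hg, the host of the miR-17 cluster (1872 bp), and Morrbid, a long non-coding RNA gene (1698 bp). The last 5 regions (0.421%) lay within 2 kb of no annotated gene. The widest of them, chr15:85670078-85672278 (2201 bp), met all 7 lists, with 1840 bp of H3K9ac and 1807 bp of H3K23ac. The others lay at chr2:18607912-18609582, chr17:13682450-13684087, chr12:86801032-86802581 and chr9:78520457-78521995.

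Chromosome X held 17 broad regions. At its genes with H3K4me3, 16 of 423 (3.78%) had a broad region, against 8.08% (chromosome 4) to 13.1% (chromosome 12) on the other chromosomes, so X lay outside their range. Fewer X-linked genes had the mark at all (43.8%, against 49.5 to 70.8% on the others). The regions there included those at Kdm6a, at the helicase gene Ddx3x, and at the deubiquitinase gene Usp9x. In Bcor, a BCL6 corepressor gene, the broad region (1950 bp) lay inside the gene, and the region at its start had 531 bp. The sex of the mice is not given in the sources used here.

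Promoter sequence, which the rule did not use, was read for starts inside H3K4me3 regions. The RefSeq table held 1163 starts of 990 genes inside broad regions. Their median CpG count in 300 bases was 29 (quartiles 21 and 37), their median observed over expected ratio 0.88 (0.73 and 0.99) and their median G+C content 68.0%. A ratio of 0.6 or more was found in 90.0% of them, 88.6% of those in regions of 1000 to 1499 bp, 77.4% in regions of 500 to 999 bp, 55.1% in narrower ones and 15.5% of starts without H3K4me3, against 48.1% of all 21020 promoters. The class of 1000 to 1499 bp had medians of 26 CpGs, a ratio of 0.85 and a G+C content of 64.7%. Broad regions thus differed little from that class in the CpG ratio, and were somewhat higher in CpG count and G+C content. The other 116 promoters, of 111 genes, had a ratio under 0.6, and 14 had one under 0.3. Among the latter were Lmna, the lamin A/C gene (1 CpG, region of 2005 bp), Lima1 (1 CpG, 1869 bp), Stab1, a scavenger receptor gene of sinusoidal endothelium (7 CpGs, 1991 bp), and Eng and Robo4. Vim, the intermediate filament vimentin (11 CpGs, ratio 0.42, 2238 bp), and Cavin1, a caveolar coat gene (17 CpGs, ratio 0.52, 2211 bp), were further members with a ratio under 0.6.

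Motif letters were counted on both strands, without mismatches, and no searched motif lies inside another. The GC box GGGCGG, which SP and KLF factors bind, was in 80.6% of the broad promoters (interval 78.2 to 82.7), 75% of those in regions of 1000 to 1499 bp, 66.8% of those in regions of 500 to 999 bp and 46.6% of all promoters. The ETS letters CCGGAAG were in 16.2% (14.2 to 18.4), 20.4%, 23.7% and 11.7% in the same order. The TATA letters TATAAA were in 4.64% (3.58 to 6.01), 5.17%, 5.38% and 12.7%. CCAAT was in 35.9%, 36.5%, 41.2% and 38.5%, the CRE letters TGACGTCA in 3.18%, 3.69%, 3.69% and 2.26%, and the AP-1 letters TGACTCA in 3.01%, 2.18%, 3.51% and 4.69%. The GC box was thus more frequent with width, and the ETS letters were less frequent in the broad class than in either of the next 2 classes. The GC box, ETS and CRE letters each hold a CpG. Neighbouring promoters of 1 gene can overlap.

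**Figure D5:**
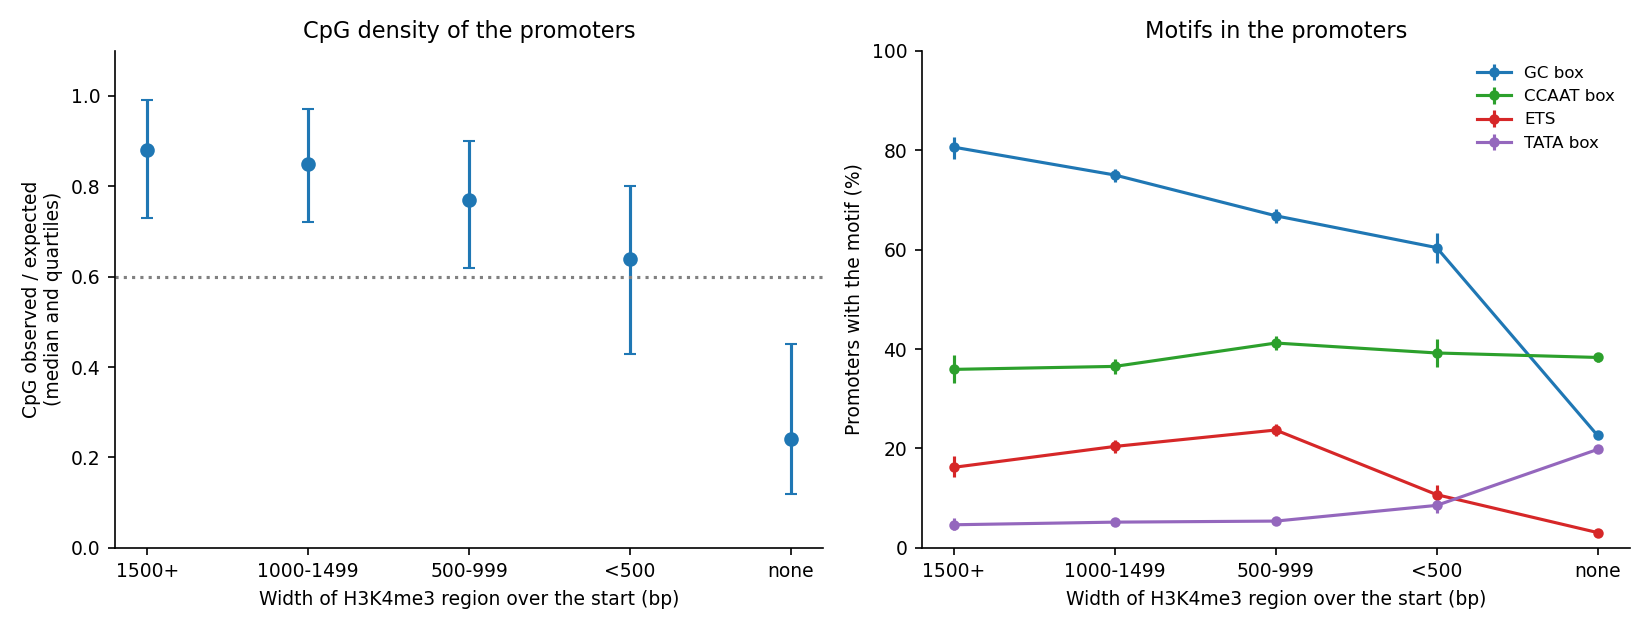
Left, CpG observed over expected (points, medians with quartiles) of 300-base promoters by width in bp of the H3K4me3 region over the start, with the 0.6 line dotted. Right, share of promoters (%, with 95% Wilson intervals) that hold each of 4 motifs. The broad class has a median of 0.88, a GC box in 80.6% and the ETS letters in 16.2%.

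Reads could be compared over a small part of the bases. Because 1 identifier of the count table can hold places from several lists, densities were estimated over all identifiers. They are given per kb of bases that no other region of the 8 lists covers. Only 10.6% of the bases of the broad regions were of this kind, and 184 regions had none. There H3K4me3 had 440.0 CPM (counts scaled to the total of the library) per kb, against 154.0 in the narrower H3K4me3 regions. H3K9ac had 67.6 against 3.07 and H3K23ac 17.1 against 1.32. The ratios were smaller for H3K18ac (27.3 against 10.7), H4K8ac (18.5 against 8.53), H3K27ac (23.5 against 12.3) and H3K14ac (2.34 against 1.23), and the estimate for H2AK5ac was 0 in both. The bases of H3K4me3 regions that lie under an acetylation peak are left out of this measure. It therefore describes the bases outside the acetylation peaks and not the acetylation of the whole regions. IgG had 8.48 CPM per kb in the broad and 30.5 in the narrower regions. IgG reads were found in the identifiers of 12 of the 1189 broad regions (1.01%), against 0.596% of the other H3K4me3 identifiers.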

How the data were processed

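ACT-seq libraries of 9 targets from wild-type mouse lung endothelial cells, 1 library each, were analysed. The authors deposited 1 table of read counts per region identifier, made with featureCounts 2.0.6 in paired-end mode without strand, per the file headers. The other columns of that deposited table used here give the chromosome, starts, ends and lengths of the regions. Per the submitters' processing notes, the tools were STAR, MACS2, featureCounts, DESeq2, Trim Galore, FastQC and MultiQC, and the builds mm10 and GRCm38.p6. How peaks were called, whether duplicates were removed and whether IgG entered the calling is not given in the sources used here.

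The 578465 identifiers hold 1309635 regions, because 8 lists share their numbering. The lists were separated by a beam search from the last identifier to the first, which kept each list in genome order and weighed the widths typical of it. Genome order was broken 0 times, and 99.85 to 100% of the regions of each list were assigned alike by order alone. Each list was named by the library with the highest CPM per kb of unshared bases, estimated by non-negative least squares, so the names were inferred from the reads. For the H3K4me3 list this library had 180 CPM per kb and the next, IgG, 28.4. A further 18 wide H3K4me3 regions on 13 other reference sequences were not used.

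Starts came from a RefSeq promoter table of GRCm38.p6 for 79.9% of 21631 protein-coding genes, and from both gene ends for the rest. Exon and intron positions were not used. Positions count from 1. Overlap meant at least 1 shared base, and the gene window was 2 kb. Replicates do not exist, so no test was run. Intervals are Wilson 95% intervals. The genes named are those at the 15 widest regions, up to 4 members of each list with the widest region (for 2 endothelial lists also the 4 widest under 1500 bp), the regions with the fewest other lists, those just inside and outside the threshold and those at no gene. Other members of the lists and other genes named were picked after their values were seen. The members and lists were chosen with earlier results of these data known. The alternatives were another width, joined regions, list separation by order alone, stricter overlaps and other gene windows. Python 3.11.15, NumPy 2.4.6, pandas 2.3.3, SciPy 1.17.1 and Numba 0.67.0 were used.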

Additional observations from a re-analysis of the deposited data

How the results depend on the processing

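No paired analysis was possible because each target had 1 library. Of 180 values recomputed under 9 settings, 122 stayed within their interval or within 1.5 times the count and 58 did not. The 13 main values stayed so with lists separated by order alone and without the regions whose identifiers hold IgG reads. The latter was chosen after seeing the data, as was a count of genes of annotated strand alone, which stayed within 1.5 times as well. The gene counts also did with a window of 1 kb.

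At 2000 bp or wider, 162 regions remained, at 166 genes, 10 of them on the lists (73 at 1500 bp), and 90.1% lay at starts. These met H3K9ac, H3K23ac, H3K27ac, H3K18ac, H4K8ac and H3K14ac in 100% each, H2AK5ac and all 7 in 79.0% each, and a list on average in 97.0% (95.3% at 1500 bp). With regions within 500 bp joined there were 2351, at 2406 genes, 132 of them on the lists, with 89.5% at starts, and they met H3K9ac in 96.9%, H3K23ac in 97.8%, H3K27ac in 98.8% and H3K18ac in 99.1%. The cystine, cysteine and glutathione list then had 2 members in place of 0. The number of regions and genes thus rests on the width and on how gaps are treated.

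Counting only regions covered over 50% or more of their bases, the shares were 82.3% for H3K9ac, 77.2% for H3K23ac, 53.5% for H3K18ac, 47.5% for H3K27ac, 42.2% for H4K8ac, 37.7% for H3K14ac and 0.0841% for H2AK5ac and for all 7, 48.6% on average. With only peaks wider than the minimum of their list, they were 96.4% for H3K9ac, 96.9% for H3K23ac, 98.4% for H4K8ac, 94.5% for H3K14ac, 25.7% for H2AK5ac, 25.3% for all 7 and 87.3% on average. The H2AK5ac overlap, and with it the overlap with all 7 lists, therefore rests on peaks of the minimum width. With whole gene spans in place of starts, 98.1% of the regions lay at genes. H3K4me3 had the lowest total of the 8 marks, and what part depth has in the widths was not tested.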
